A study of Danio rerio with 6 samples.

Results

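The level of 8 cathepsin genes was compared between the ovaries of WT zebrafish and those of the ddx4-L mutant. The genes were ctsa, ctsba, ctsc, ctsd, ctsh, ctsk, ctsla and ctsz, chosen by name as lysosomal proteases linked to yolk processing, with earlier results of these data known. Each name was matched to the gene symbols ignoring case, and each gave 1 of the 32519 genes of the table. The name ctsba was found only as CTSB, without its final letter. All 8 passed the filter on low counts, as did 19353 genes in all.

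RNA was sequenced from whole ovaries of females at 6 months post-fertilization (mpf), with 3 libraries from WT fish and 3 from the line labelled ddx4E4Δ, called the ddx4-L mutant here. This single line, made with CRISPR-Cas9, lacks a short stretch of the exon of ddx4, the gene of a germ cell RNA helicase, that only its ovary-biased transcript holds. The strain and the zygosity of the sequenced fish are not given in the sources used here. A whole ovary holds oocytes of each stage beside follicle, stromal and blood cells, so a lower level can mean fewer cells of a type or less RNA per cell, and these cannot be told apart. The labels number the libraries 1 to 3 within a genotype. The p values per gene set the difference between the genotypes against the spread between these libraries. The spread of a gene was estimated with help from the other genes tested.

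Fish oocytes grow by taking up vitellogenin, a yolk precursor made in the liver, through receptors at their surface. In the endosomes that become yolk platelets it is cut into yolk proteins, and cathepsin D, an aspartic protease, is known for this first cleavage. In several fishes the cysteine proteases cathepsin B and cathepsin L degrade yolk proteins further while the oocyte matures and in the embryo. Cathepsins are made as inactive proenzymes that are processed in an acidic compartment, so the transcript level is not a measure of enzyme activity.

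The values deposited per library summed to between 76520483 and 86263179, with medians of 77653950 in WT and 77225773 in the mutant (p = 0.6 in a two-sided exact permutation over libraries, which cannot go below 0.1 here). They were not scaled between libraries, and 4 was the most frequent value above 0 in each of the 6 libraries. Levels are given as CPM, which are counts scaled to a fixed total per library with TMM factors, and CPM values of different genes are not comparable because they are not divided by gene length. Mutant replicate 2 stood apart in transcripts of the liver. The 7 hepatocyte marker genes that were looked up (fabp10a, tfa, fga, FGB, FGG, apoa2 and serpina1) summed to 561.8 CPM in mutant replicate 2. They summed to 18.4 and 16.7 CPM in mutant replicates 1 and 3, and to 1.545, 0.556 and 3.95 CPM in WT replicates 1, 2 and 3. Each mutant library thus lay above each WT library. Values of the cathepsin genes without mutant replicate 2 are given as well, though mutant replicates 1 and 3 keep some of these transcripts. Among the growing oocyte markers, buc, zar1 and bmp15 were present in each library, as for ovary tissue. Of the 9 oocyte markers tested, 4 had a higher and 5 a lower estimate in the mutant with a median log2 fold change of -0.22. Of the 9, 1 passed the test, GDF9 as lower (-0.82, standard error 0.095, adjusted p = 0.0064), against 2.61% of all genes as lower.

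None of the 8 cathepsin genes passed the test between WT and mutant ovaries, which was edgeR's quasi-likelihood test at a Benjamini-Hochberg adjusted p under 0.05. Of all genes tested 4.57% passed it, 1.96% as higher (379 genes) and 2.61% as lower (505 genes) in the mutant, a split that became 533 higher and 411 lower with total-count scaling. With an absolute log2 fold change of 1 or more as a further condition, 3.11% of all genes and 0 of the 8 passed, and at an adjusted p under 0.1 the shares were 8.73% and 0 of 8. With DESeq2, 0 of the 8 passed against 11.1% of all genes. At an unadjusted p under 0.05, 1 of the 8 (ctsc) passed against 19.9% of all genes. The same gene was the only 1 of the 8 whose libraries did not overlap between the genotypes, against 28.4% of all genes (14.3% as higher in the mutant). In the mutant, 6 of the 8 had a higher and 2 a lower estimate, against 51.5% of all genes with a higher one. The number with a higher estimate depended on single libraries: it was 3 without WT replicate 1, 4 without WT replicate 2 or mutant replicate 3, and 7 without WT replicate 3 or mutant replicate 2. The median log2 fold change was 0.14 over the 8 genes and 0.014 over all genes tested. Without mutant replicate 2, the library with the most liver transcripts, none of the 8 passed either. The estimates of ctsba, ctsla, ctsa, ctsc and ctsz were then 0.16, 0.03, 0.03, 0.49 and 0.32 on the log2 scale.

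**Figure D1:**
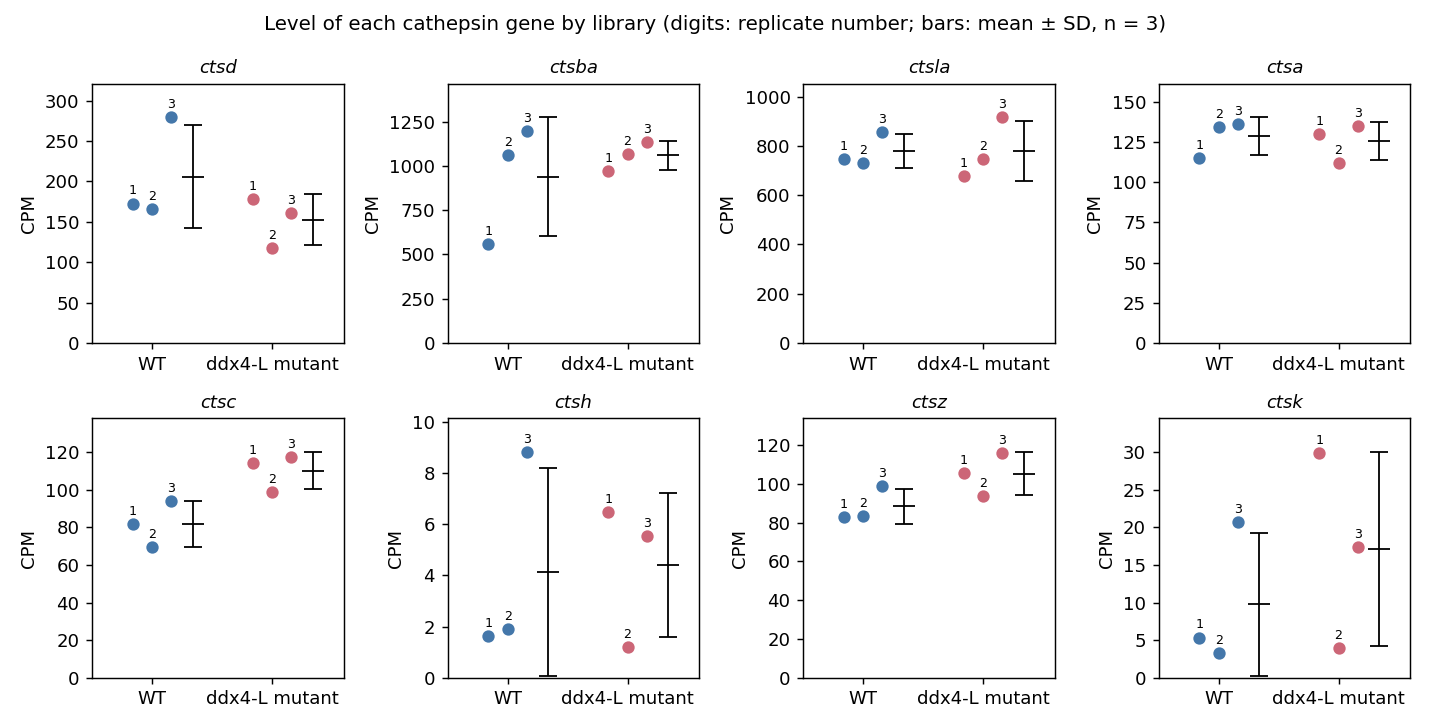
CPM of each cathepsin gene in 3 WT (blue) and 3 ddx4-L mutant (red) libraries, with the replicate number above each point and the mean ± SD (n = 3) as a bar. Each vertical axis starts at 0 and has its own scale. The genotypes overlap in each panel except that of ctsc, and ctsh and ctsk are low in WT replicates 1 and 2 and in mutant replicate 2.

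The aspartic protease gene ctsd (listed as CTSD, ENSDARG00000057698) had 172.7, 166.2 and 279.3 CPM in WT replicates 1, 2 and 3 and 178.8, 117.3 and 161.1 CPM in mutant replicates 1, 2 and 3. WT replicate 3 was high and mutant replicate 2 was low, while the other 4 libraries lay between 161.1 and 178.8 CPM. The means were 206.1 ± 63.5 and 152.4 ± 31.7 CPM (SD, n = 3). Its log2 fold change was -0.44 ± 0.235 (SE, 95% interval -0.99 to 0.11, adjusted p = 0.36), the lowest of the 8 genes. Without WT replicate 3 the log2 fold change was -0.15, and without mutant replicate 2 it was -0.29. The interval reaches down to 0.505 of the WT level. Over the 6 libraries the genes most like ctsd were RIOK2, CTNND1 and CIB1 (r of 0.973, 0.966 and 0.963).

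The cathepsin B gene ctsba (CTSB, ENSDARG00000055120) had 558.2, 1061 and 1196 CPM in WT replicates 1, 2 and 3. In mutant replicates 1, 2 and 3 it had 973.6, 1070 and 1136 CPM. WT replicate 1 lay far below the other 5 libraries, which ranged from 973.6 to 1196 CPM. Mutant and WT differed by a log2 fold change of 0.18 ± 0.26 (SE, 95% interval -0.43 to 0.78, adjusted p = 0.76). It turned to -0.09 without WT replicate 1, with a standard error of 0.13, so the higher mean of the mutant rested on that library. The counts behind the values of ctsba ran from 41561 to 100826.

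The low level in WT replicate 1 was shared by other genes, whose number was not counted. The legumain gene LGMN (ENSDARG00000039150), whose product is a lysosomal cysteine protease that cuts after asparagine and helps to mature cathepsins, had 99.7 CPM there and between 183.0 and 239.3 CPM in the other 5 libraries. The genes most like ctsba over the 6 libraries, among 12654 genes whose mean log2 CPM was 1 or more, were si:dkey-25c4.1, mia2 and ENSDARG00000102748, with Pearson's r of 0.995, 0.991 and 0.990. In WT replicate 1, si:dkey-25c4.1 had 0.376 CPM against 4.81 to 8.06 CPM in the other libraries. The gene ENSDARG00000102748 had 0.390 CPM there against 5.84 to 13.99 CPM. These r describe 6 libraries that also share their depth and makeup, and the genes were picked for the highest r.

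The cathepsin L gene ctsla (ENSDARG00000007836) had 745.8, 732.3 and 857.8 CPM in WT replicates 1, 2 and 3 and 678.9, 746.3 and 916.1 CPM in mutant replicates 1, 2 and 3. The mutant libraries spanned the WT libraries on both sides. Between the genotypes the log2 fold change was 0.003 ± 0.14 (SE, 95% interval -0.32 to 0.32, adjusted p = 0.99), a ratio between 0.804 and 1.25. Its sign changed with the scaling of the libraries. The genes most like it were zgc:55558, actb2, which encodes a cytoplasmic actin, and LAMTOR2, which encodes a part of the Ragulator complex of the lysosome surface (r of 0.993, 0.992 and 0.992 over the 6 libraries).

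Among the genes of the exopeptidases, ctsc (CTSC, ENSDARG00000101334) encodes dipeptidyl peptidase 1, which removes pairs of residues from the amino terminus and in mammals activates serine proteases of leukocytes. It had 81.7, 69.4 and 94.3 CPM in WT replicates 1, 2 and 3 and 114.2, 98.9 and 117.3 CPM in mutant replicates 1, 2 and 3. Each mutant library lay above each WT library, with a gap of 94.3 to 98.9 CPM between the genotypes. The means were 81.8 ± 12.4 and 110.2 ± 9.86 CPM (SD, n = 3), and the log2 fold change was 0.43 ± 0.13 (SE, 95% interval 0.13 to 0.73). Its unadjusted p was 0.012 and its adjusted p was 0.12, the lowest of the 8 genes. The adjusted p was 0.055 with DESeq2 and 0.083 with total-count scaling, and with 1 library left out in turn it ran from 0.0985 to 0.26. The genes most like ctsc were GADD45B, COQ10B and FLVCR2 (r of 0.995, 0.988 and 0.985 over the 6 libraries).

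The cathepsin Z gene ctsz (CTSZ, ENSDARG00000043081), whose product removes single residues from the carboxyl terminus, had 83.0, 83.5 and 98.9 CPM in WT replicates 1, 2 and 3. In mutant replicates 1, 2 and 3 it had 105.7, 93.7 and 115.9 CPM. Only WT replicate 3 and mutant replicate 2 were in the reverse order. The log2 fold change was 0.25 ± 0.11 (SE, 95% interval -0.01 to 0.51, adjusted p = 0.27). Over the 6 libraries ctsz and ctsc followed each other with r = 0.92, as a description of these libraries. With ctsk the r was 0.80 for ctsz and 0.76 for ctsc, and with ctsh it was 0.72 and 0.55. Closest to ctsz in r were si:ch211-106h4.12, SLC25A43 and HIBCH (r of 0.991, 0.991 and 0.988).

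The gene ctsa (CTSA, ENSDARG00000098114) encodes a serine carboxypeptidase that, in mammals, also protects β-galactosidase and neuraminidase in the lysosome. It had 115.3, 134.5 and 136.2 CPM in WT replicates 1, 2 and 3 and 130.1, 112.2 and 134.7 CPM in mutant replicates 1, 2 and 3. The groups covered nearly the same range, with the lowest level in mutant replicate 2. The log2 fold change was -0.03 ± 0.10 (SE, 95% interval -0.28 to 0.21, adjusted p = 0.90), the narrowest interval of the 8 genes. Its partners in that complex did not pass the test either. NEU1 (neuraminidase) had a log2 fold change of 0.20 and GLB1 (β-galactosidase) of 0.11 (adjusted p = 0.73 and 0.78). The genes most like ctsa were KLHL42, ENSDARG00000054128 and znf292a (r of 0.986, 0.983 and 0.981).

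The remaining genes, ctsh and ctsk, were the least even between libraries. The gene ctsh (CTSH, ENSDARG00000041108) encodes an aminopeptidase, and ctsk (CTSK, ENSDARG00000040251) encodes an endopeptidase that is best known for collagen breakdown by osteoclasts in mammals. The level of ctsh was 1.64, 1.91 and 8.81 CPM in WT replicates 1, 2 and 3 and 6.49, 1.22 and 5.53 CPM in mutant replicates 1, 2 and 3. For ctsk it was 5.35, 3.28 and 20.7 CPM in WT and 29.9, 4.002 and 17.4 CPM in mutant replicates 1, 2 and 3. In both genes WT replicate 3 and mutant replicates 1 and 3 were high, and WT replicates 1 and 2 and mutant replicate 2 were low.

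Within WT the highest library exceeded the lowest 5.38-fold for ctsh and 6.31-fold for ctsk, and within the mutant it did so 5.34-fold and 7.46-fold. The SD of log2 CPM within a genotype was 1.33 for ctsh and 1.44 for ctsk, against 0.14 to 0.43 for the other 6 genes and a median of 0.33 over all genes tested. The log2 fold changes were 0.10 for ctsh (standard error 0.81, 95% interval -1.79 to 1.99, adjusted p = 0.96) and 0.80 for ctsk (standard error 0.84, 95% interval -1.17 to 2.78, adjusted p = 0.66). A fall to 0.288 and a rise to 3.97 times the WT level both lie within the interval of ctsh. Without WT replicate 3 the estimates were 1.32 and 1.98, and without mutant replicate 1 they were -0.30 and 0.12, with no adjusted p under 0.05. Without mutant replicate 2, which held the most liver transcripts, they were 0.54 and 1.26 (adjusted p = 0.77 and 0.44).

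**Figure D2:**
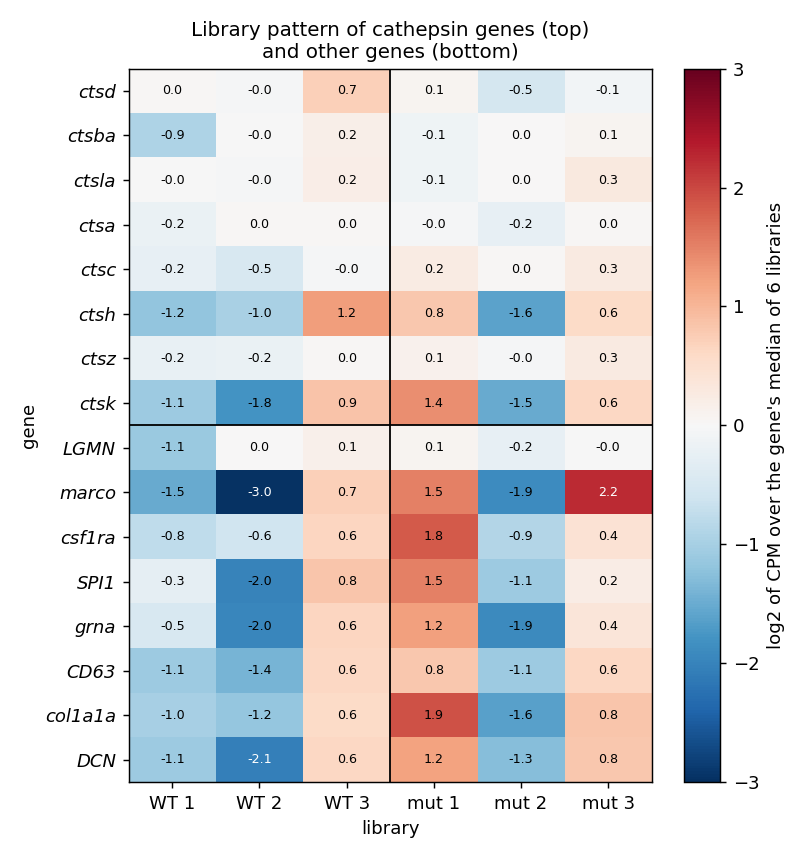
Levels of the 8 cathepsin genes (above the line) and of 8 other genes of the lists (below it) in each library, as log2 of the CPM over the gene's median of the 6 libraries. The other genes were chosen after their values were seen. The rows of ctsh and ctsk are red in WT replicate 3 and mutant replicates 1 and 3 and blue in the other 3 libraries, as are those of marco, csf1ra, SPI1, grna, CD63, col1a1a and DCN. The row of ctsz has the same signs at a far smaller scale, from -0.21 to 0.27. The row of ctsba is blue in WT replicate 1, as is that of LGMN.

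Markers of macrophages, and the collagen and decorin genes among the stroma markers, were high in the same libraries as ctsh and ctsk. Of 8 macrophage names, 6 gave a gene (csf1ra, csf1rb, marco, cd74a, cd74b and SPI1, which encodes a transcription factor of myeloid cells). Their summed level was 20.6, 34.2 and 73.3 CPM in WT replicates 1, 2 and 3 and 104.1, 32.5 and 92.2 CPM in mutant replicates 1, 2 and 3. The same 3 libraries were high as for ctsh and ctsk. None of the 5 macrophage markers tested passed the test in edgeR, at an unadjusted p under 0.05 or in DESeq2, and csf1rb had 0 counts in mutant replicate 2. All 5 had a higher estimate in the mutant, against 51.5% of all genes, with a median log2 fold change of 0.66. The 7 genes of the theca and stroma list summed to 106.4, 94.7 and 106.8 CPM in WT and to 209.6, 110.0 and 151.2 CPM in mutant replicates 1, 2 and 3. In this sum WT replicates 1 and 3 were nearly level. CYP17A1, a steroidogenic enzyme gene of this list, was lowest in WT replicate 3 (33.0 CPM, against 72.6 to 89.0 CPM elsewhere), and acta2 and PDGFRA did not have the order of ctsk either. None of the 7 passed the test in edgeR, at an unadjusted p under 0.05 or in DESeq2.

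The collagen gene col1a1a had 6.51, 5.76 and 19.3 CPM in WT and 48.4, 4.20 and 22.8 CPM in mutant replicates 1, 2 and 3, and COL1A2 and DCN were high in the same 3 libraries. Lysosomal genes with the library pattern of ctsk included DPP7, a dipeptidyl peptidase, with 2.66, 3.15 and 14.6 CPM in WT and 12.9, 3.13 and 9.63 CPM in mutant replicates 1, 2 and 3. The gene most like ctsk was NPC2 (ENSDARG00000096979), whose product carries cholesterol in the lysosome, with r = 0.99 over the 6 libraries, followed by CPXM1 and marcksl1a. The other NPC2 gene, ENSDARG00000090912, did not have this pattern. It had 131.8, 157.4 and 133.0 CPM in WT and 115.6, 108.6 and 124.2 CPM in mutant replicates 1, 2 and 3. The genes most like ctsh were si:ch211-214p13.9, si:dkey-97i18.5 and FUCA2. The levels of ctsh and ctsk followed each other with r = 0.94. Of the granulosa, neutrophil and red blood cell markers 8, 4 and 5 genes were tested and 0 passed in edgeR, while 1 (MMP9, a neutrophil marker with an adjusted p of 0.059) had an unadjusted p under 0.05 and passed in DESeq2. What part the makeup of cells has in the values of ctsh and ctsk was not tested.

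Of the osteoclast markers, looked up because of ctsk, 4 genes were found and 3 tested. The 3 did not overlap between the genotypes, 2 as higher and 1 as lower in the mutant, against 28.4% of all genes. Of these, 1 passed as higher and 1 as lower, against 1.96% and 2.61% of all genes. The gene ocstamp (ENSDARG00000022139), known from the fusion of osteoclast precursors in mammals, had 0 counts in each WT library and 56, 99 and 112 counts in mutant replicates 1, 2 and 3. Against 12 counts per library, about 3 sequenced fragments and taken as the lowest level told from 0, its mean of 1.13 ± 0.40 CPM (SD, n = 3) was at least 7.31-fold higher in the mutant (adjusted p = 0.013). It passed in 4 of the 6 fits that left out a library, and not without mutant replicate 2 or 3 (adjusted p up to 0.056). Nor did it pass with a block for the replicate number (adjusted p = 0.080). Mutant replicate 1, the highest library for ctsk, was the lowest of the mutant for ocstamp. The gene tnfrsf11a, for the receptor RANK, had 0.725, 0 and 0.913 CPM in WT and 2.41, 1.02 and 2.18 CPM in mutant replicates 1, 2 and 3 (log2 fold change 1.77, adjusted p = 0.46). CALCR, the calcitonin receptor gene, had 0 counts in each WT library and 11, 5 and 12 counts in mutant replicates 1, 2 and 3. None of these was above the 12 counts taken as the lowest level, and the gene was not tested. ACP5, described with the hydrolases, was the lower 1.

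Summed over the 8 genes, the level was 1764, 2252 and 2692 CPM in WT replicates 1, 2 and 3 and 2218, 2244 and 2604 CPM in mutant replicates 1, 2 and 3. The means were 2236 ± 464.4 and 2355 ± 215.6 CPM (SD, n = 3), with overlap. The counts of ctsba and ctsla made up between 73.9% and 81.0% of those of the 8 genes in each library, and the 8 genes together between 0.171% and 0.263% of all counts. Neither the sums nor these shares are divided by gene length, so they do not give shares of transcripts.

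Other lysosomal proteases were compared by a list of 23 names, of which 14 genes were tested. None passed the test in edgeR, while ctss2.1 and ctsf had an unadjusted p under 0.05 and passed in DESeq2. The median log2 fold change was 0.022, with 8 genes higher and 6 lower. The highest estimate was that of ctss2.2 (0.87, standard error 0.53, adjusted p = 0.42), which encodes a cathepsin S and had 2.41 CPM in mutant replicate 2 but 11.4 CPM in the other mutant libraries. In the RefSeq gene order of the assembly GRCz12tu, ctss2.1 and ctss2.2 directly follow ctsk.

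The gene ctss2.1 (ENSDARG00000074656) was chosen after its values were seen. It had 652.1, 589.7 and 601.0 CPM in WT replicates 1, 2 and 3 and 733.1, 840.5 and 860.8 CPM in mutant replicates 1, 2 and 3, without overlap. The levels lay above those of WT in each mutant library, also in mutant replicate 2 where its neighbours ctsk and ctss2.2 were low. Its log2 fold change was 0.40 ± 0.10 (SE; adjusted p = 0.075), with an adjusted p of 0.012 in DESeq2 and 0.022 with total-count scaling, and of 0.012 to 0.25 over all alternatives.

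The cathepsin F gene ctsf (ENSDARG00000063095) had the lowest estimate of this list. Its level was 8.29, 11.02 and 9.19 CPM in WT replicates 1, 2 and 3 and 5.76, 1.67 and 2.35 CPM in mutant replicates 1, 2 and 3, without overlap. This gave a log2 fold change of -1.54 ± 0.46 (SE; adjusted p = 0.12), and the adjusted p was 0.0044 in DESeq2 and 0.032 in edgeR without mutant replicate 1. In contrast TPP1, SCPEP1 and CPVL, peptidases of the lysosome, had log2 fold changes of -0.19, 0.01 and 0.03 (adjusted p = 0.32, 0.96 and 0.89). The genes ctslb, ctsl.1 and ctsbb, paralogs of the cathepsin L and B genes, had at most 0.13 CPM in any library and were not tested.

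**Figure D3:**
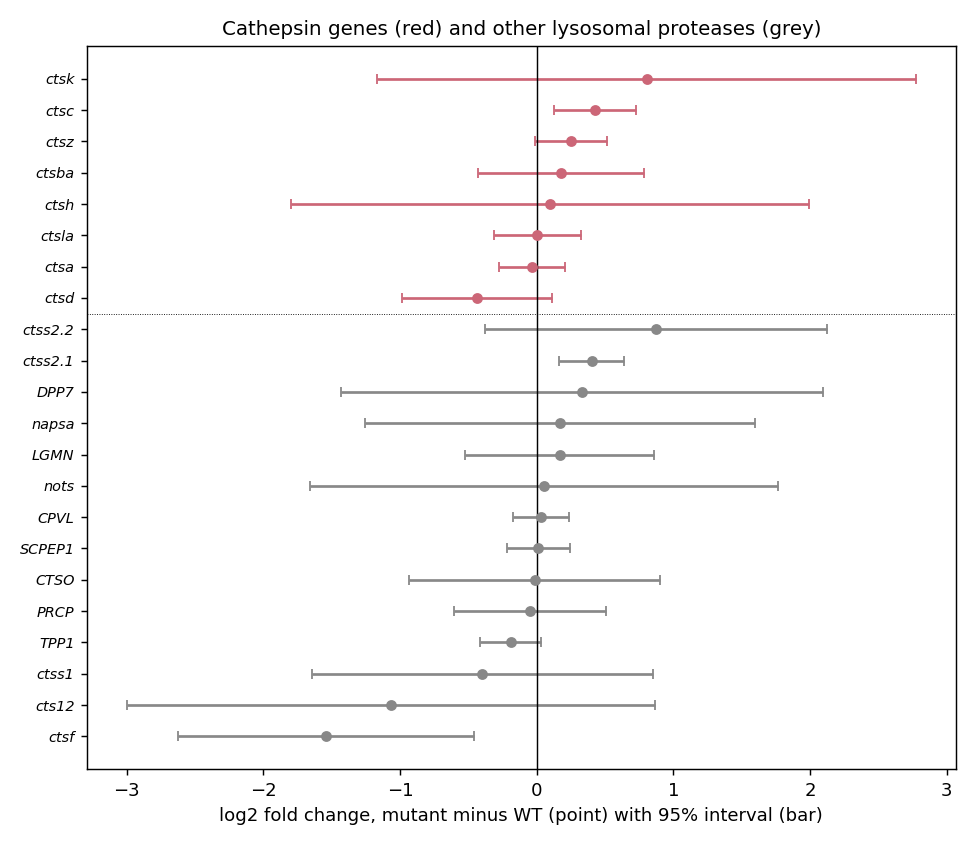
Log2 fold change (mutant minus WT) of the 8 cathepsin genes (red) and of 14 other lysosomal protease genes tested (grey), as points with the 95% interval derived from edgeR's test as bars. The intervals of ctsc, ctss2.1 and ctsf do not include 0, and those of ctsh and ctsk are the widest among the 8. None of these genes had an adjusted p under 0.05.

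A list drawn up for inhibitors of cathepsins held 10 tested genes. It also held the serpin genes SERPINB1, serpinb14 and SERPINH1 and the genes spint1a and spint1b, all named for inhibitors of serine proteases. Of the 10, 1 passed the test as lower and none as higher, against 2.61% and 1.96% of all genes. The median log2 fold change was 0.005, with 5 genes higher and 5 lower. At an unadjusted p under 0.05 there were 6 of the 10, against 19.9% of all genes, and cst14b.1 and spint1b passed in DESeq2. No overlap was found for 4, against 28.4% of all genes. The 6 were cst14b.1, cst14a.2, serpinb14, spint1a, spint1b and a2ml. Of these, a2ml had 4.525 CPM in mutant replicate 2, the library with the most liver transcripts, and at most 0.228 CPM in any other library. DESeq2 gave a2ml no adjusted p. The gene cst14b.1 (ENSDARG00000117133), of the cystatin family of cysteine protease inhibitors, fell from 32.0, 20.5 and 20.3 CPM in WT to 13.3, 8.85 and 10.7 CPM in mutant replicates 1, 2 and 3. This was a log2 fold change of -1.15 ± 0.24 (SE; adjusted p = 0.046). It no longer passed with total-count scaling (adjusted p = 0.064) or without any 1 of the 6 libraries (0.071 to 0.12). Its relative cst14a.2 ranged from 83.85 to 87.03 CPM in WT and from 49.2 to 79.8 CPM in mutant libraries (log2 fold change -0.42, adjusted p = 0.21). The gene spint1b, for a Kunitz-type inhibitor of serine proteases, ranged from 38.3 to 45.0 CPM in WT and from 28.8 to 32.3 CPM in mutant libraries (log2 fold change -0.48, adjusted p = 0.059, and 0.0044 in DESeq2). The cystatin C gene cst3 had a log2 fold change of 0.51 (adjusted p = 0.48).

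Of the yolk proteins and uptake receptors, 26 genes were tested and none passed in edgeR, with a median log2 fold change of 0.090. At an unadjusted p under 0.05 there were 8, against 19.9% of all genes, and 1 (LRPAP1) passed in DESeq2. The 8 were LRPAP1, vtg1, vtg2, vtg3, vtg4, vtg5, vtg7 and apobb.1, and all but LRPAP1 were highest in mutant replicate 2. To those other than LRPAP1, DESeq2 gave no adjusted p. The vitellogenin gene vtg1 (ENSDARG00000092233) had 1.65, 0.106 and 1.54 CPM in WT replicates 1, 2 and 3 and 16.4, 2118 and 0.479 CPM in mutant replicates 1, 2 and 3. Nearly all of it was in mutant replicate 2, the library with the highest sum of the hepatocyte markers. The estimate of 9.33 ± 2.88 on the log2 scale (SE, adjusted p = 0.13) rested on that library. The oocyte receptor for vitellogenin, VLDLR, had 783.3 ± 17.3 CPM in WT and 740.5 ± 86.9 CPM in mutant ovaries (SD, n = 3; log2 fold change -0.08, adjusted p = 0.74). For lrp13, a lipoprotein receptor of the fish ovary, the CPM was 1652 ± 13.4 in WT and 1434 ± 169.0 in mutant ovaries (SD, n = 3). Its log2 fold change was -0.20 (adjusted p = 0.38). The genotypes did not overlap, but the lowest WT library (1638 CPM) was only just above the highest mutant library (1629 CPM). LRPAP1, a chaperone of these receptors, had a log2 fold change of -0.35 ± 0.078 (SE; adjusted p = 0.053). The lowest estimate was that of CUBN, the endocytic receptor cubilin, at -0.86 (adjusted p = 0.48).

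The vacuolar ATPase pumps protons into endosomes and lysosomes, where cathepsins need acid. Of its subunit genes 21 were tested, and 1 passed as lower, against 2.61% of all genes. The median log2 fold change was -0.025. With DESeq2, 2 of the 21 passed, against 11.1% of all genes. These were atp6v1e1b and ATP6V1D (log2 fold change -0.59, adjusted p = 0.14 in edgeR and 0.035 in DESeq2). The gene atp6v1e1b (ENSDARG00000030694), for a stalk subunit, fell from 49.2, 47.9 and 46.3 CPM in WT to 30.6, 26.6 and 31.8 CPM in mutant replicates 1, 2 and 3. No library of 1 genotype came near the other. On the log2 scale the change was -0.69 ± 0.11 (SE; adjusted p = 0.018), and it passed in 2 of the 6 leave-one-out fits (adjusted p from 0.030 to 0.065). The gene did not pass with a block for the replicate number (adjusted p = 0.0695). Its paralog atp6v1e1a had a log2 fold change of -0.23 (adjusted p = 0.65).

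Of the lysosomal hydrolases and activators, 39 genes were tested, and 1 passed as higher and 2 as lower, against 1.96% and 2.61% of all genes. The median log2 fold change was 0.048. PPT1 (ENSDARG00000039980), the thioesterase that removes palmitate from proteins in the lysosome, fell from 228.2, 269.2 and 163.6 CPM in WT to 89.3, 93.2 and 103.3 CPM in mutant replicates 1, 2 and 3. This was the largest change of these genes, a log2 fold change of -1.21 ± 0.18 (SE; adjusted p = 0.013), and it passed in 4 of the 6 leave-one-out fits (adjusted p from 0.0063 to 0.061). ACP5 (ENSDARG00000019763), the tartrate-resistant acid phosphatase, fell from 351.9, 299.7 and 309.0 CPM to 165.4, 179.3 and 221.8 CPM, a log2 fold change of -0.76 ± 0.13 (SE; adjusted p = 0.022). LIPG rose from 240.3 ± 8.22 to 363.9 ± 49.6 CPM (SD, n = 3; log2 fold change 0.60, standard error 0.11, adjusted p = 0.033), though its product, endothelial lipase, acts at the cell surface and not in the lysosome. ACP5 and LIPG each passed in 1 of the 6 leave-one-out fits. Neither passed with a block for the replicate number (adjusted p = 0.0695 and 0.074). In DESeq2 the same 3 genes of this list passed, against 11.1% of all genes.

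Among the genes of the lysosomal membrane, of sorting and of lysosome gene regulation, 34 were tested and 1 passed as lower, against 2.61% of all genes. Their median log2 fold change was -0.11, with 13 higher and 21 lower (51.5% of all genes were higher), and 13 of the 34 had no overlap between the genotypes, against 28.4% of all genes. LAMP2 (ENSDARG00000014914), a main glycoprotein of the lysosomal membrane, fell from 1206, 1116 and 1153 CPM in WT to 830.7, 893.9 and 807.7 CPM in mutant replicates 1, 2 and 3. On the log2 scale it changed by -0.46 ± 0.094 (SE; adjusted p = 0.042), and it passed in none of the 6 leave-one-out fits (adjusted p from 0.070 to 0.14). With a block for the replicate number LAMP2 did not pass either (adjusted p = 0.121). In DESeq2, 2 of the 34 passed, against 11.1% of all genes. These were LAMP2 and lamp1b (log2 fold change -0.51, adjusted p = 0.13 in edgeR and 0.040 in DESeq2). IGF2R, a receptor that carries hydrolases with mannose 6-phosphate to lysosomes, had a log2 fold change of -0.51 (adjusted p = 0.19), and the other such receptor, M6PR, of 0.001 (adjusted p = 0.997). TFEB, which encodes a regulator of lysosomal genes, had 1.48 ± 0.59 CPM in WT and 0.912 ± 0.290 CPM in mutant ovaries (SD, n = 3; adjusted p = 0.48).

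**Figure D4:**
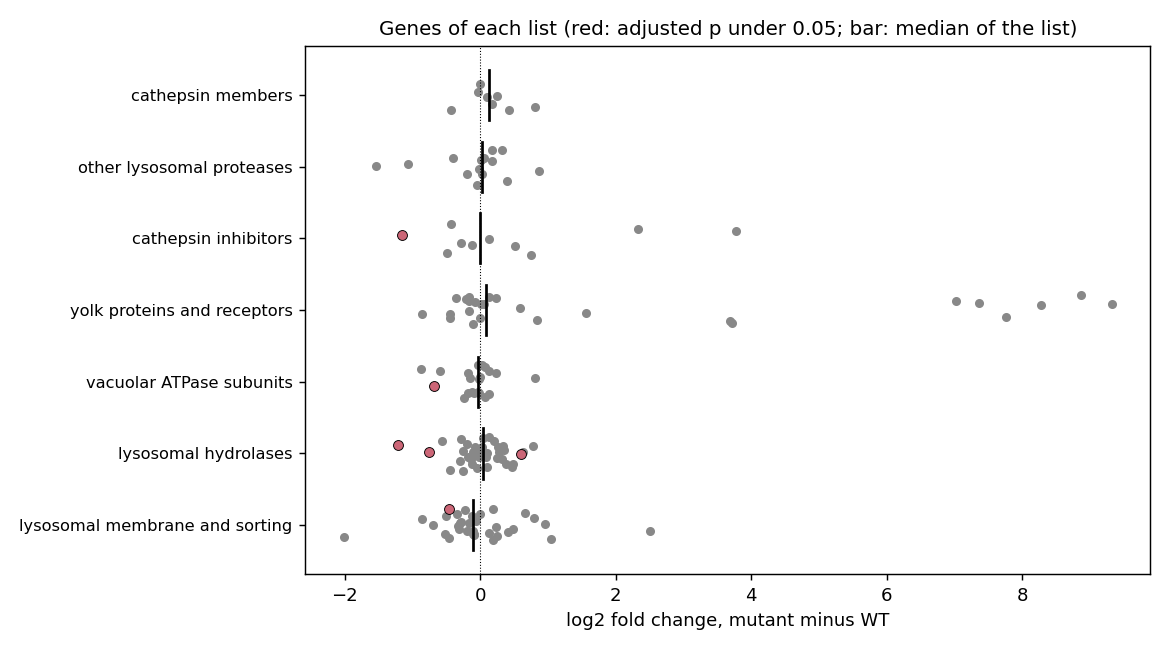
Log2 fold change (mutant minus WT) of the tested genes of the cathepsins and of the 6 pathway lists, without the cell type marker lists, with the median of the list as a bar and genes with an adjusted p under 0.05 in red. The red points are cst14b.1, atp6v1e1b, PPT1, ACP5, LIPG and LAMP2, and LIPG is the only 1 of these above 0. The 6 points above 7 are the vitellogenin genes vtg1, vtg2, vtg4, vtg5 and vtg7 and the apolipoprotein gene apobb.1, each of them highest in mutant replicate 2.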

How the data were processed

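Per the study's methods, the authors removed adapters with Cutadapt, aligned to the zebrafish genome with STAR and counted with featureCounts, whereas the submitters' processing notes list HISAT2, StringTie, RSEM and DESeq2 for GRCz11. The library kit also differs between the labels (TruSeq) and the methods (NEBNext). The deposited whole numbers per gene were treated as estimated counts, because their totals exceed the clean reads of the library and 1 fragment appears to be worth about 4 units. Handling of multiply mapped reads, strand and annotation are not given in the sources used here, so reads of paralogs and overlapping genes may be split or shared. Of the Ensembl IDs, 29200 had a symbol in the reference table.

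Low genes were removed by filterByExpr, libraries scaled by TMM, and genotypes compared by edgeR 4.0.16 (R 4.3.3) with a quasi-likelihood fit on genotype alone and Benjamini-Hochberg adjustment over 19353 genes. Adjusted p values are from this test unless DESeq2 1.42.0 is named. The code was tested on simulated data. Lists were described by counts and medians, and Pearson's r was taken on log2 CPM (prior count 2). The members and lists were chosen with earlier results of these data known. Named were the members, the 3 genes most like each, and per list the genes that passed (or, with none, the highest and lowest estimate). Any further list gene was named with its values known. Alternatives were other scalings, filters and thresholds, DESeq2, counts divided by 4, a replicate block and leaving out each library. Figures used matplotlib 3.10.9.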

Additional observations from a re-analysis of the deposited data

How the results depend on the processing

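No cathepsin gene passed the test in any of the 14 alternatives. None had an adjusted p under 0.1 with the main settings, while ctsc did in 5 of the alternatives (0.055 with DESeq2, 0.083 with total-count scaling, 0.096 with the replicate block, 0.0985 without WT replicate 3 and 0.09997 with counts divided by 4), and 96 of 112 values of the 8 genes kept their direction. The log2 fold change of ctsa turned to 0.048 with total-count scaling. That of ctsla turned to -0.0042 with RLE size factors, -0.014 with upper-quartile scaling, -0.0037 with DESeq2, -0.0024 with counts divided by 4 and -0.0044 with the replicate block. With 1 library left out, ctsa ran from -0.11 to 0.031, ctsba from -0.091 to 0.39, ctsh from -0.30 to 1.32 and ctsla from -0.13 to 0.092. Of all genes, 884 passed the test, 2365 with DESeq2, 325 with the replicate block and 380 to 553 with 1 library left out. Same-numbered libraries did not deviate together (r of -0.074, 0.083 and -0.018), while WT replicate 3 and mutant replicate 1 had r = 0.174. These r cannot show whether same-numbered fish shared a batch, which the labels do not say. The cause of these changes was not tested. With 3 libraries a genotype the standard errors of ctsh and ctsk were 0.81 and 0.84 on the log2 scale, against 0.10 to 0.26 for the other 6 genes.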
